A study of Oryza sativa Japonica Group and Oryza sativa Indica Group with 10 samples.

Results

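Of the 57258 rice probe sets on the Affymetrix GeneChip rice array, 84 gave a strong signal in young panicles of the indica cultivar 93-11 and a weak one in those of the japonica cultivar Nipponbare. They were chosen by the mean of the log10 signal, which had to lie above 2.5 over the 5 arrays of 93-11 and below 2.0 over the 5 arrays of Nipponbare. The probe sets of METK3 and OsAGO14 meet the same rule and were left out. Labeled cRNA came from young panicles 2 cm long, with 5 biological replicates of 93-11 and 5 of Nipponbare, each hybridized to 1 array read in 1 colour. The labels name no transgene and no treatment, so the groups differ by cultivar. The labels do not say whether the replicates came from separate plants or plots, and all tests below measure only the spread between these samples.

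Rice indica and japonica are subspecies whose genomes differ by many nucleotide polymorphisms and by genes that one holds and the other lacks. Each probe set of this array is a group of short oligonucleotides that share 1 target transcript, in most cases one of japonica and in some one of indica, and its signal is a summary over them. A short probe binds less of a target that differs from it in sequence, so the signal of a probe set depends on the sequence of the transcript as well as on its level. These values do not separate sequence from level, and which of the 84 probe sets were designed on indica sequence was not analysed here. Probe sequences and promoters of the genes were not analysed here either, so no sequence is shown.

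The deposited arrays differed in their overall level. With 2% of probe sets trimmed off either end, the array mean was 213 ± 18.5 for 93-11 and 277 ± 62.4 for Nipponbare (SD, n = 5 each, p = 0.0317 by a two-sided exact permutation test, and 0.127 adjusted over 4 measures of the arrays). The actin 3'/5' ratio, a measure of RNA and labeling quality, was 3.60 ± 0.758 in 93-11 and 3.22 ± 0.749 in Nipponbare (SD, n = 5 each, exact permutation p = 0.437, adjusted p = 0.582), and the highest ratio of each cultivar was on its array 5, at 4.84 in 93-11 and 4.54 in Nipponbare. Of 19 probe sets of 11 genes that mark the young panicle, such as MADS-box genes and OSH1, 15 exceeded a mean log10 signal of 2.5 in both 93-11 and Nipponbare, and none of 10 probe sets of seed storage and endosperm genes did in either. The summed signal of 9 probe sets of leaf genes of light harvesting and chlorophyll synthesis ranged from 1021 to 3081 on the 93-11 arrays and from 13593 to 22101 on the Nipponbare arrays. That of 4 probe sets of anther and tapetum genes ranged from 187 to 237 in 93-11 and from 406 to 699 in Nipponbare. No root marker of the list matched a probe set, and the part of these marker levels in the differences below was not tested. The lists were matched by gene symbol, and none of the 84 probe sets is paired with a named gene. None of the 84 could therefore belong to these lists. In panicles as a whole, fewer cells of a type and less RNA per cell cannot be told apart.

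**Figure D1:**
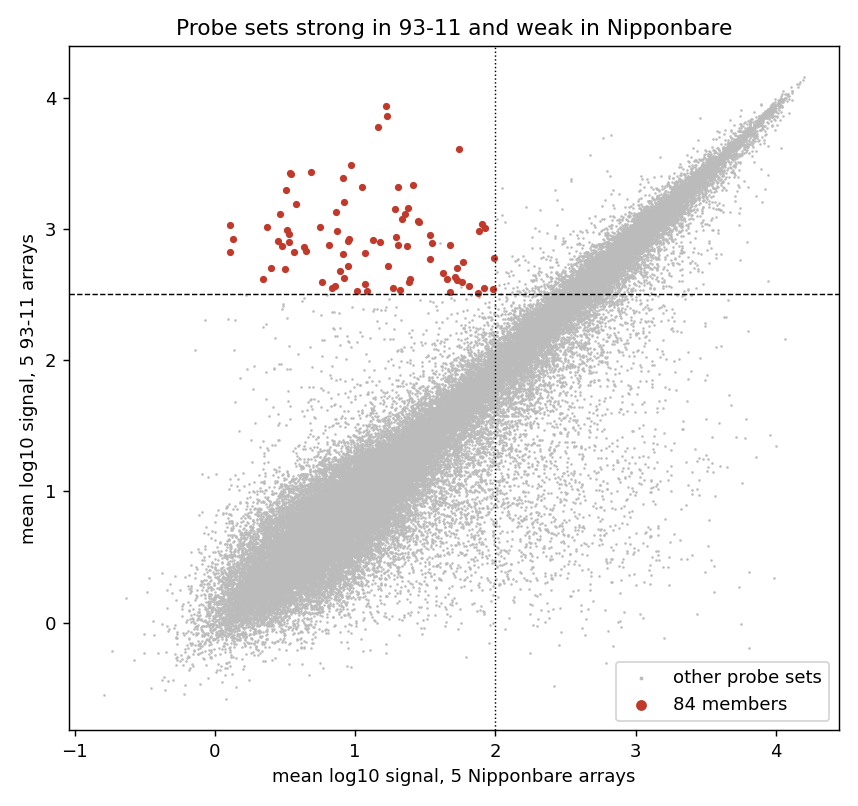
Mean log10 signal of all 57258 rice probe sets over the 5 93-11 arrays (vertical) and the 5 Nipponbare arrays (horizontal). Each point is a probe set, the 84 chosen ones are red, and the dashed and dotted lines are the thresholds of 2.5 and 2.0 that define them. The red points lie above the band of the other probe sets.

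The values that chose the 84 probe sets are given as a description. Their mean log10 signal ran from 2.51 to 3.93 in 93-11, with a median of 2.88, and from 0.11 to 1.99 in Nipponbare, with a median of 1.11. In 93-11, 56 lay between 2.5 and 3.0, 24 between 3.0 and 3.5 and 4 above 3.5. In Nipponbare, 10 lay under 0.5, 27 between 0.5 and 1.0, 26 between 1.0 and 1.5 and 21 between 1.5 and 2.0. Among all rice probe sets ordered by level, the 84 held percentiles from 80.5 to 99.9 in 93-11 (median 89.4) and from 1.54 to 65.5 in Nipponbare (median 37.7). The level of 60 of them in Nipponbare was below the median of all probe sets in that cultivar. The difference of the mean log10 signal, 93-11 minus Nipponbare, was 1.78 at the median and ran from 0.56 to 2.92, and it was above 2 in 33 of them. The probe set IDs, the genes and the per-array signals below are those of the deposited table and of the platform annotation.

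The strongest of them in 93-11 was Os.9825.1.S1_at, paired with the gene LOC4333210 on chromosome 3. Its signal was 9529, 7636, 8952, 7749 and 9054 on the 93-11 arrays, against 3.85, 38.2, 18.3, 19.2 and 24.2 on the Nipponbare arrays. The second, OsAffx.19388.1.S1_s_at of LOC4329759 on chromosome 2, gave 8563, 6654, 7562, 6415 and 7221 on the 93-11 arrays, against 12.5, 17.02, 16.3, 31.6 and 12.3 on the Nipponbare arrays. On no Nipponbare array did either exceed 38.2. Os.13565.1.A1_at, which the annotation used here pairs with no gene, gave 6689, 6182, 5936, 5231 and 6105 on the 93-11 arrays, against 16.5, 20.1, 14.7, 10.6 and 12.7 on the Nipponbare arrays. Os.23615.1.A1_at, also unpaired, had 5008, 3874, 4681, 3717 and 3314 on the 93-11 arrays, against 60.3, 66.8, 56.2, 68.8 and 31.2 on the Nipponbare arrays. Of its Nipponbare arrays 4 lay between 56.2 and 68.8 and array 5 was lowest. Os.18866.1.A1_at, unpaired, completed the 5 strongest with 3566, 2994, 2994, 3221 and 2713 on the 93-11 arrays, against 17.3, 3.601, 20.5, 4.68 and 11.8 on the Nipponbare arrays.

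By the difference of mean log10 signal, the largest was that of Os.39305.1.A1_x_at, at 2.92, one of a pair of probe sets of LOC4350802 on chromosome 11. Its signal was 1259, 1008, 1212, 835 and 1112 on the 93-11 arrays, against 2.24, 1.99, 0.515, 6.49 and 0.237 on the Nipponbare arrays. The other of the pair, Os.39305.1.A1_at, gave 1224, 1030.5, 1108, 759.8 and 1090.1 on the 93-11 arrays, against 1.37, 9.56, 0.867, 1.06 and 5.84 on the Nipponbare arrays, a difference of 2.64. The pair followed each other over the 93-11 arrays, with array 4 lowest in both, and over the Nipponbare arrays they did not. Os.18503.1.S1_s_at of LOC4346960 on chromosome 9, the only one of the 84 paired with a gene annotated as a lncRNA, had 2713, 2445, 2848, 2593 and 2772 on the 93-11 arrays, against 12.3, 1.57, 2.07, 1.64 and 7.17 on the Nipponbare arrays, a difference of 2.89. Os.16043.1.S1_at of LOC4351117, again on chromosome 11, had 3152, 2512, 3190.3, 2266 and 2540.3 on the 93-11 arrays, against 4.76, 6.45, 1.74, 4.39 and 11.2 on the Nipponbare arrays. The lowest 93-11 signal was at least 128 times the highest Nipponbare signal in these, except in Os.39305.1.A1_at.

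The other 6 of the 10 largest differences were Os.9825.1.S1_at, given above, and 5 probe sets with no single gene. OsAffx.23706.1.S1_at had 3408, 2609, 2612, 2534 and 2103 on the 93-11 arrays, against 3.12, 7.902, 1.83, 1.2 and 9.29 on the Nipponbare arrays. Os.42638.1.S1_at had 2273, 1970.3, 2261, 1934 and 1476 on the 93-11 arrays, against 0.672, 7.85, 7.43, 5.41 and 1.56 on the Nipponbare arrays. In both, array 5 was the lowest of 93-11 and the groups stayed far apart. OsAffx.14375.1.S1_at had 1662, 1345, 1178, 1256 and 1142 on the 93-11 arrays, against 11.7, 1.59, 6.51, 0.571 and 3.003 on the Nipponbare arrays. Os.22921.1.A1_at had 818, 710.1, 689.5, 599 and 549.7 on the 93-11 arrays, against 5.302, 8.76, 0.358, 1.91 and 0.109 on the Nipponbare arrays. In proportion, the Nipponbare signals differed more between arrays than the 93-11 ones, and the size of a log10 difference against such values depends on signals of a few units. Os.47732.1.S1_at, the only one of the 84 that the annotation pairs with several genes (LOC4352472 and LOC4352471), had 909, 717, 812, 608 and 1292 on the 93-11 arrays, against 2.25, 2.45, 0.7003, 2.32 and 0.476 on the Nipponbare arrays.

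**Figure D2:**
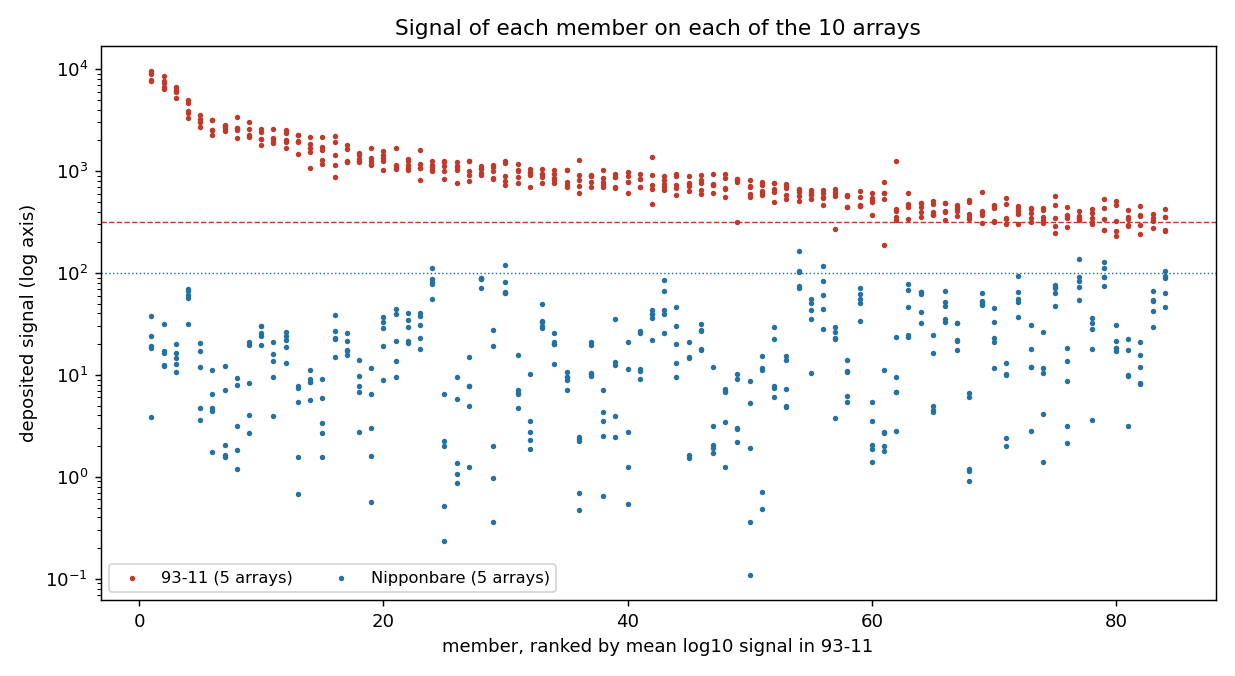
Deposited signal (log axis) of each of the 84 probe sets on the 5 93-11 arrays (red) and the 5 Nipponbare arrays (blue), ordered by the mean log10 signal in 93-11. The dashed and dotted lines mark log10 2.5 and 2.0, and no red point of a probe set lies below a blue point of the same probe set.

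The thresholds cut through a continuous range of levels. Just inside the threshold of 93-11 lay Os.48092.1.A1_at, Os.23820.1.A1_at and Os.25164.1.A1_at, with a mean log10 signal of 2.51, 2.52 and 2.53 in 93-11 and of 1.88, 1.68 and 1.09 in Nipponbare. Just outside it, at 2.497, 2.497 and 2.493 in 93-11, lay Os.17055.2.A1_a_at, Os.36460.2.S1_x_at and OsAffx.26017.1.S1_at. The first of these gave 322, 314, 343, 296 and 297 on the 93-11 arrays, against 0.765, 1.58, 1.37, 1.69 and 4.43 on the Nipponbare arrays and its lowest 93-11 signal was 66.9 times its highest Nipponbare signal. Just inside the threshold of Nipponbare were OsAffx.23623.1.S1_x_at, Os.34089.1.S1_at and OsAffx.16098.1.S1_at at 1.99, 1.99 and 1.93 in that cultivar. Just outside it were Os.56099.1.S1_at, Os.28405.1.S1_at and Os.56288.1.S1_at at 2.01, 2.01 and 2.02. The narrowest separation inside was that of Os.34089.1.S1_at of LOC4327221, with 428, 334, 261, 261 and 535 on the 93-11 arrays, against 73.9, 111, 128, 90.5 and 90.8 on the Nipponbare arrays.

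Every array of 93-11 was above every array of Nipponbare in all 84 probe sets, which the thresholds on the means nearly fix, and 1.47% of all rice probe sets showed the same separation. The lowest 93-11 signal was between 2.05 and 260 times the highest Nipponbare signal, with a median of 25.7. All 84 were called higher in 93-11 by limma on log2(signal + 16) with Benjamini-Hochberg adjustment, where 1.66% of the 57258 were called higher. Since the rule used this contrast, nothing is read from these counts. The log2 difference, 93-11 minus Nipponbare, of log2(signal + 16) had a median of 4.70 over the 84 (range 1.69 to 7.94), and of -0.16 over all probe sets. After scaling of each array to a common trimmed mean it was 4.97 over the 84 and 0.03 over all. The added constant makes these differences smaller than those of the signals themselves.

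The rule is set on means, and 62 of the 84 met it on every single array. On 93-11 arrays 1 to 5, 84, 78, 82, 75 and 77 of them were above log10 2.5. On Nipponbare arrays 1 to 5, 84, 78, 82, 83 and 83 were below 2.0, and none was above 2.5. In all, 17 had a 93-11 array at or below 2.5 and 7 a Nipponbare array at or above 2.0. Most of these 7 came from Nipponbare array 2, which had the highest trimmed mean signal of the 10 arrays, 377.

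Replicates agreed closely in 93-11. The SD of log2(signal) over the 5 arrays had a median of 0.227 in the 84 probe sets (quartiles 0.187 and 0.289), and 78 of them (92.9%) were below 0.5. The other 11282 probe sets above log10 2.5 in 93-11 had a median of 0.221, and 96.5% of them were below 0.5. In Nipponbare the median SD of the 84 was 0.815 (quartiles 0.438 and 1.26), with 30 of them (35.7%) below 0.5. The other 37506 probe sets below log10 2.0 had a median of 0.893 (quartiles 0.551 and 1.34), with 20.4% below 0.5. The median spread of the 84 was thus near that of other probe sets on the same side of the threshold. In Nipponbare a larger share of the 84 was below 0.5. These differences were not tested. After scaling of the arrays the medians of the 84 were 0.189 in 93-11 and 0.852 in Nipponbare, and those of the other probe sets 0.174 and 0.842. The share below 0.5 in Nipponbare was then 36.9% in the 84 and 27.6% in the others. Across the 84 probe sets, which are not independent replicates, the log10 signals of pairs of arrays correlated with Pearson's r from 0.89 to 0.99 within 93-11 and from 0.62 to 0.78 within Nipponbare, and all pairs share the same probes. The order of the 84 in Nipponbare was therefore partly shared between arrays although most of the signals were weak.

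**Figure D3:**
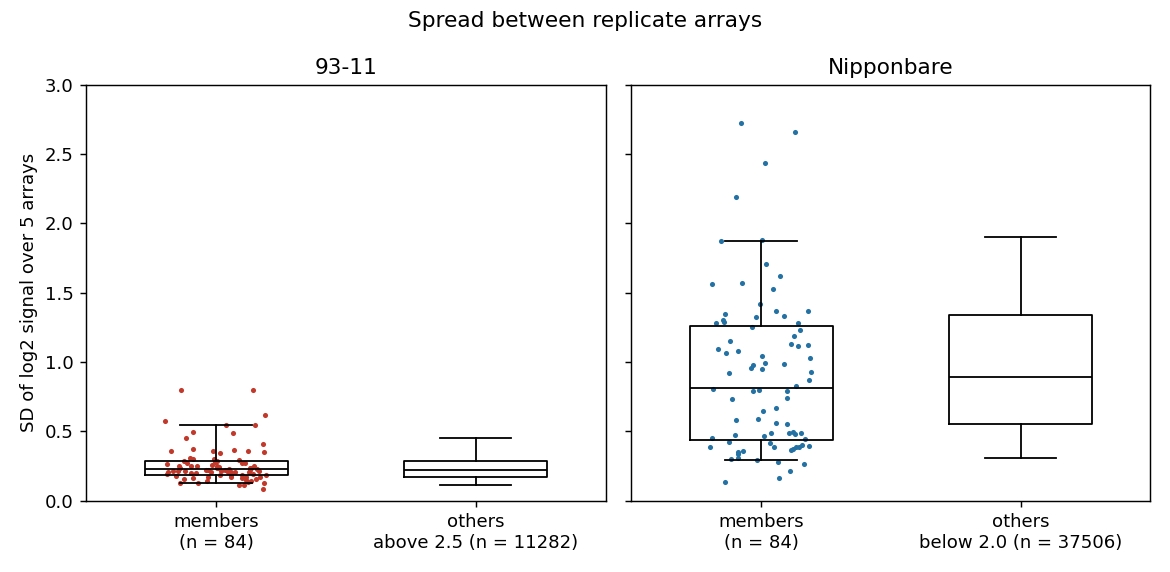
SD of log2 signal over the 5 arrays of 93-11 (left) and of Nipponbare (right). Points and the left box of each panel are the 84 probe sets, the right box is all other probe sets above log10 2.5 in 93-11 or below 2.0 in Nipponbare, boxes show quartiles and whiskers the 5th and 95th percentiles. The medians were 0.227 and 0.221 in 93-11, and 0.815 and 0.893 in Nipponbare.

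Within 93-11, array 5 stood apart in some of the probe sets. Of the 3 with the ID number Os.18866, Os.18866.2.S1_at had 603, 607, 536, 780.2 and 189 and Os.18866.3.A1_at had 420.3, 350.0, 402, 328 and 1259 on 93-11 arrays 1 to 5. Array 5 was thus the lowest for the first and the highest for the second, while Os.18866.1.A1_at, given above, varied little. On the Nipponbare arrays these had 11.2, 2.78, 2.02, 2.72 and 1.79 for Os.18866.2.S1_at and 9.58, 23.7, 6.72, 2.79 and 6.75 for Os.18866.3.A1_at. Of the Os.14923 pair, Os.14923.1.S1_at had 2157, 1665, 1825, 1529 and 1071 and Os.14923.2.S1_at had 819, 773, 834, 829.7 and 315 in 93-11, with array 5 lowest in both. In Nipponbare no array of either exceeded 11.1. Over all 84, array 5 was the highest of 93-11 in 23 and the lowest in 24, while array 1 was the highest in 35 and array 4 the lowest in 34. These ranks are of signals before scaling. Of the 93-11 arrays, array 1 had the highest trimmed mean signal, 235, and arrays 2 and 4 the lowest, 196 and 197. A single 93-11 array lay far from the other 4, by a gap of over 0.71 of the range, in 4 of the 84, and it was array 5 in each of the 4. Chance alone gives about 1 in 20, which is near this count, and the share over all rice probe sets was not counted. Array 5 also had the highest actin 3'/5' ratio of 93-11. Its GAPDH ratio was 6.15, with 6.31, 4.74, 3.38 and 4.05 on 93-11 arrays 1 to 4, and its cyclophilin ratio of 3.12 lay within the range of the others. In Nipponbare the GAPDH ratio was also highest on array 5, at 5.72, and at most 4.41 on the others. The part of these ratios in the values was not tested. When the arrays numbered 5 of both cultivars were left out, 87 probe sets met the rule.

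The 84 probe sets had 75 different ID numbers, the part of the ID before its second point, and 16 of them shared 7 numbers. Besides Os.18866, Os.14923 and the pairs of Os.39305 and Os.18503, these were Os.38444, Os.47668 and Os.44418. Os.38444.2.S1_x_at had 863, 927, 1036, 768 and 932 on the 93-11 arrays, against 32.9, 49.4, 33.6, 28.8 and 30 on the Nipponbare arrays. Os.38444.1.S1_x_at had 824, 694, 749, 646 and 894 on the 93-11 arrays, against 66.6, 25.9, 85.2, 39.6 and 43.4 on the Nipponbare arrays. Os.38444.2.S1_at had 668, 754, 764, 496 and 623 on the 93-11 arrays, against 7.71, 7.4, 29.5, 22.5 and 6.05 on the Nipponbare arrays. In none of the 3 did the cultivars overlap. In 93-11 the signals of the Os.47668 pair were 2344, 1676, 2498, 1929 and 2029.5 for Os.47668.1.S1_at and 2414, 1777, 2599, 2053 and 2053 for Os.47668.1.S1_x_at. Those of the Os.44418 pair were 1126, 1043, 1132, 1069 and 1692 for Os.44418.1.S1_at and 356, 286, 339, 298 and 416 for Os.44418.2.S1_at. In both of the Os.44418 pair, array 5 was the highest of 93-11.

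Most of the 84 were paired with no gene, and none was paired with a named gene. Exactly 1 gene was paired with 21 of them, or 25% (95% Wilson interval 17.0% to 35.2%), several genes with 1 and none with 62. Of all 57258 probe sets 39.2% were paired with exactly 1 gene, and of the 11006 strong in both cultivars 81.8%. Of the 616 probe sets of the opposite kind, above 2.5 in Nipponbare and below 2.0 in 93-11, the share was 51.8% (47.8% to 55.7%). Without the IDs that begin with OsAffx, the share was 29.9% in the 84 and 69.2% in all probe sets. It was then 87.3% in those strong in both cultivars and 54.5% in those of the opposite kind. The intervals treat probe sets as independent, and no test was made of these shares. A probe set that the annotation does not pair is unnamed here, which does not mean that it has no gene. The 21 paired probe sets belong to 20 genes, of which 19 are annotated as protein-coding and 1, LOC4346960, as a lncRNA. All 20 carry only a locus number, none has a gene name, and the annotation used here gives no function for them. Accordingly none of the 84 was in any of 15 lists made by gene symbol, such as heat shock, WRKY, MADS-box or cell wall genes, which hold from 3 to 82 probe sets each.

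The IDs of the 84 differed from those of the array as a whole in other ways, given as counts. IDs that begin with OsAffx made up 17 of the 84 (20.2%), 44.5% of all probe sets, and 7.63% of those strong in both cultivars. IDs with the letter A before the number that precedes the ending made up 26 (31.0%), against 7.48% of all, 6.64% of those strong in both cultivars and 7.63% of those of the opposite kind. Of the 26, 5 were paired with exactly 1 gene (19.2%), against 36.2% of all probe sets with this letter. Endings told less. In the 84, 70 ended in _at alone (83.3%, and 80.0% of all), 8 in _s_at, 6 in _x_at and none in _a_at. The last 3 endings mark probes shared by several transcripts or similar to other sequences, so a signal of such a probe set can come from more than 1 transcript.

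Of the 20 genes, 5 lie on chromosome 11, LOC4350092, LOC9267355, LOC4350667, LOC4350802 and LOC4351117. This was 25% of them, while chromosome 11 holds 4.72% of all 17905 genes paired with a probe set, 3.66% of the genes strong in 93-11 and 10.4% of those of the opposite kind. Chromosome 1 had 4 (LOC4327221, LOC4325626, LOC4327230 and LOC4324010), chromosome 2 had 3 (LOC4329294, LOC4329444 and LOC4329759), and chromosomes 7 and 12 had 2 each. Chromosomes 3, 5, 9 and 10 had 1 each and chromosomes 4, 6 and 8 had none. With so few genes the counts are a description and were not tested, and the genes of the 62 unpaired probe sets could not be counted. The chromosome of each gene is that of RefSeq's ASM3414082v1 assembly. Positions are left out because the build of the array design is not given in the sources used here.

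**Figure D4:**
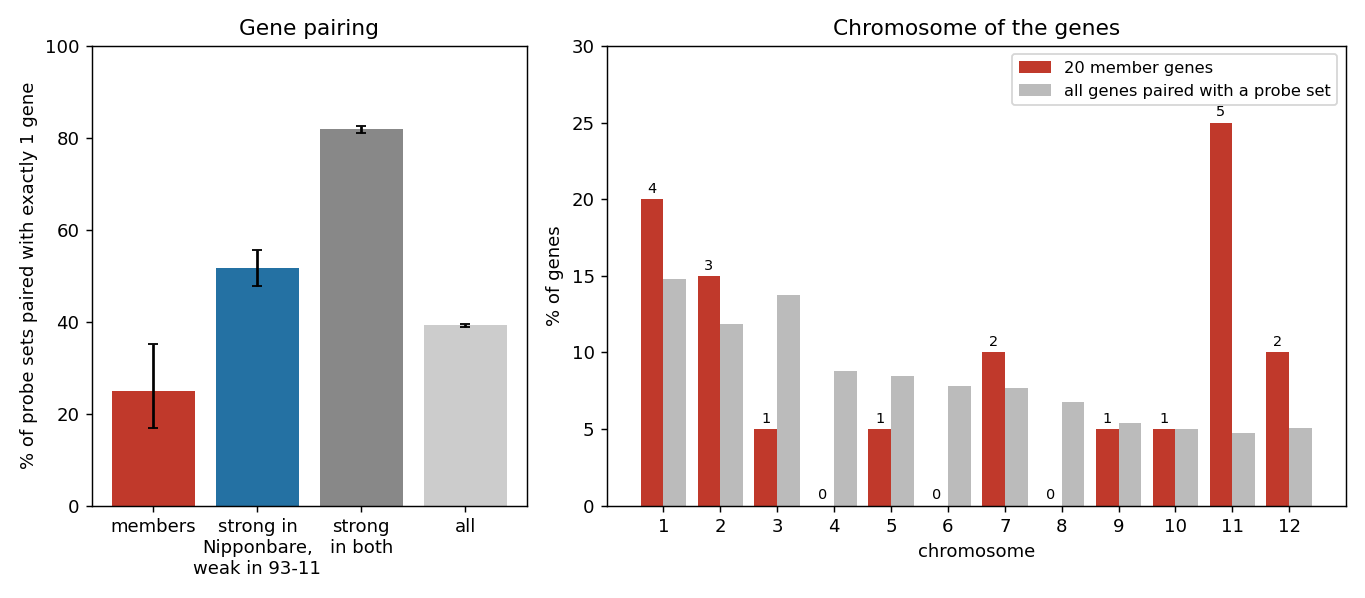
Left, the share of probe sets paired with exactly 1 gene (%, bars, with 95% Wilson intervals) for the 84 probe sets, those strong in Nipponbare and weak in 93-11, those strong in both cultivars and all. Right, the share of genes (%) on each of the 12 chromosomes, for the 20 genes of the 84 probe sets (red, with their number) and for all 17905 genes paired with a probe set (grey). Chromosome 11 holds 5 of the 20.

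On chromosome 11, LOC4350092, of Os.52908.1.S1_at, had 719.6, 637, 746, 755 and 901 on the 93-11 arrays, against 15.1, 14.6, 21.04, 1.62 and 1.54 on the Nipponbare arrays. LOC4350667, of Os.25454.1.S1_at, had 462, 476, 606, 439 and 339 on the 93-11 arrays, against 23.6, 77.3, 46.1, 67.5 and 24.8 on the Nipponbare arrays. LOC9267355, of Os.48418.1.S1_at, had 437, 376, 401, 301 and 455 on the 93-11 arrays, against 65.4, 92.7, 55.4, 52.2 and 37 on the Nipponbare arrays. The other 2 genes of chromosome 11, LOC4351117 and LOC4350802, are given above. On chromosome 1, LOC4325626, of Os.27761.1.A1_at, had 341, 303, 541, 474 and 343 on the 93-11 arrays, against 9.91, 10.3, 2.02, 13.03 and 2.404 on the Nipponbare arrays. All of its 93-11 arrays were above all of its Nipponbare arrays, which ranged from 2.02 to 13.03. On chromosome 2, LOC4329294, of Os.47445.1.S1_at, had 459, 245, 288, 347 and 565 on the 93-11 arrays, against 47.05, 63.8, 75.8, 71.4 and 72.9 on the Nipponbare arrays. LOC4342716 on chromosome 7, of Os.44418.1.S1_at, had 9.55, 44.4, 21.3, 39.2 and 13.7 on the Nipponbare arrays beside the 93-11 values above. LOC9266606 on chromosome 12, of Os.23820.1.A1_at, had 379.8, 323, 345, 276 and 333 on the 93-11 arrays, against 53.4, 66.4, 54.7, 29.7 and 42.5 on the Nipponbare arrays. In the annotation used here 10 of the 20 genes, LOC4350092, LOC4350667, LOC9267355, LOC4325626, LOC4329294, LOC4342716, LOC9266606, LOC4327221, LOC4346960 and LOC4351117, have no other probe set.

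The calls of the genes next to these 20 were counted beside those of all genes, as a description. For each gene the nearest gene on either side that has a probe set was taken, 40 in all, none of them among the 20, and each was represented by its probe set of highest mean level. Limma called 9 of the 40 lower in 93-11 (22.5%) and none higher, where 18.1% of 17905 genes were called lower and 1.69% higher by the same choice of probe sets. After scaling it called 3 higher and 8 lower, where 14.0% were called higher and 13.5% lower. The median log2 difference of the neighbours was -0.39 and that of all genes -0.24. The neighbour after LOC4329444, LOC9270682, had a mean log10 signal of 0.00 in 93-11 and 2.88 in Nipponbare, and that before LOC4324010, LOC4324008, had 0.94 in 93-11 and 2.77 in Nipponbare. Up to 10 genes without a probe set lay between a gene and its neighbour.

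The remaining 10 genes have 18 other probe sets, which the rule did not use but which share arrays and RNA with the 84. Limma called 4 of the 18 higher in 93-11 (22.2%) and 10 lower (55.6%), where 1.68% of the 22436 probe sets paired with exactly 1 gene were called higher and 17.8% lower. Of all rice probe sets, 11.9% were called lower. After scaling of the arrays 8 were called higher and 9 lower, where 12.6% and 13.6% of the paired probe sets were. On the deposited values 7 of the 10 genes had a probe set called lower beside one of the 84, 3 had one called higher, and LOC4352868 had both. After scaling 7 had one called lower and 6 one called higher, and LOC4327230, LOC4337923 and LOC4352868 had both. Of the 18, 7 were above log10 2.5 in both cultivars and 3 were above 2.5 in Nipponbare and below 2.0 in 93-11. Of the 22436 probe sets paired with exactly 1 gene, 9006 were of the first kind and 319 of the latter. Where probe sets of 1 gene differ in this way, the gene has no single direction in these data, and an adjusted p above the threshold does not show that the cultivars were alike.

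In LOC4329444 on chromosome 2 the probe sets ran in opposite directions. Os.14042.1.S1_at, one of the 84, gave 675, 529, 710.5, 587 and 744 on the 93-11 arrays, against 15.5, 7.24, 14.1, 4.83 and 4.98 on the Nipponbare arrays. The other probe set of the gene, Os.9326.1.S1_at, gave 26.8, 23.3, 25.6, 26.4 and 28.6 on the 93-11 arrays, against 3888, 4891, 2814, 3037 and 3281 on the Nipponbare arrays. It was thus strong in the cultivar in which the first was weak, with a log2 difference of -6.39 (standard error 0.17, limma adjusted p = 3.26e-13), and -6.11 after scaling. The cultivars did not overlap in either probe set. LOC4333210, the gene of the strongest of the 84, had 3 other probe sets, all called lower. Os.52294.1.S1_at gave 16.7, 15.2, 14.7, 18.7 and 12.4 on the 93-11 arrays, against 825, 1833, 1884, 1103 and 905 on the Nipponbare arrays, a log2 difference of -5.31 (standard error 0.23, limma adjusted p = 8.48e-11). Os.47722.1.S1_at was at 217 ± 86.2 in 93-11 and 565 ± 221 in Nipponbare (SD, n = 5 each, limma adjusted p = 0.00559) and Os.45017.1.S1_at at 28.6 ± 7.99 in 93-11 and 121 ± 37.1 in Nipponbare (limma adjusted p = 1.54e-04). Levels of different probe sets are not on 1 scale, so only the directions within each are set side by side.

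LOC4337923 on chromosome 5 had 3 probe sets of 3 kinds. Os.22560.1.A1_at, one of the 84, gave 1030.5, 767, 1170.3, 868 and 988 on the 93-11 arrays, against 6.601, 15.6, 6.54, 7.05 and 4.701 on the Nipponbare arrays. Os.5838.1.S1_at gave 27.8, 25.7, 58.3, 22 and 20.3 on the 93-11 arrays, against 447, 684, 584, 386 and 357 on the Nipponbare arrays, a log2 difference of -3.45 (standard error 0.24, limma adjusted p = 2.20e-08). Os.22560.1.A1_s_at was strong in both cultivars, at 2145 ± 293 in 93-11 and 1705 ± 406 in Nipponbare (SD, n = 5 each), with a log2 difference of 0.35 that was not called as deposited (limma adjusted p = 0.229) but was after scaling (0.70, adjusted p = 4.67e-06) and without Nipponbare array 2 (0.48). LOC4324010 on chromosome 1 was similar. Os.20714.1.S1_at, one of the 84, gave 926, 743, 724, 720.3 and 612 on the 93-11 arrays, against 1.72, 3.18, 11.9, 2.03 and 1.92 on the Nipponbare arrays. Os.8761.2.S1_at gave 7.32, 14.8, 15.6, 8.38 and 6.29 on the 93-11 arrays, against 175, 375, 292, 213 and 184 on the Nipponbare arrays, a log2 difference of -3.28 (limma adjusted p = 4.28e-08), with no overlap. Os.8761.1.S1_s_at was at 403 ± 75.7 in 93-11 and 778 ± 251 in Nipponbare (SD, n = 5 each, log2 difference -0.87, limma adjusted p = 0.02). This last call was lost after scaling (-0.52, adjusted p = 0.0584) and when Nipponbare array 2, 3 or 4 or 93-11 array 5 was left out (-0.77, -0.83, -0.76 and -0.76).

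LOC4350802 on chromosome 11, with a pair among the 84, had Os.11161.1.S1_at at 28.4 ± 12.7 in 93-11 and 118 ± 33.2 in Nipponbare (SD, n = 5 each, log2 difference -1.60, limma adjusted p = 3.55e-04), called lower in 93-11. LOC4327230 on chromosome 1 had Os.46177.1.S1_at among the 84, with 641, 450.1, 554, 452 and 459 on the 93-11 arrays, against 61.6, 71.4, 50.6, 33.9 and 55.7 on the Nipponbare arrays. Os.46177.1.S1_x_at, of the same ID number, was at 499.7 ± 81.2 in 93-11 and 404 ± 71.7 in Nipponbare (log2 difference 0.30, limma adjusted p = 0.316, and 0.64 with adjusted p = 0.00192 after scaling). Os.7001.1.S1_at of the same gene was weak in both cultivars, at 12.5 ± 3.92 in 93-11 and 40.8 ± 14.8 in Nipponbare (limma adjusted p = 0.00662). LOC4329759 on chromosome 2 had Os.18677.1.S1_at at 1300.3 ± 277 in 93-11 and 976 ± 203 in Nipponbare (SD, n = 5 each, limma adjusted p = 0.179, and 0.00156 after scaling, with a log2 difference of 0.76), above log10 2.5 in both cultivars, where OsAffx.19388.1.S1_s_at had at most 31.6 on a Nipponbare array.

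In 3 genes another probe set was, on the deposited values, called higher with the one among the 84. Of those called higher, Os.10659.1.S1_at, Os.8385.2.S1_x_at and Os.46902.1.S1_x_at share the ID number of the one among the 84, and Os.47039.1.S1_x_at does not. None of the probe sets called lower shares it. LOC9268308 on chromosome 7 had Os.10659.1.S1_s_at among the 84, with 1627, 1237, 1791, 1259 and 1225 on the 93-11 arrays, against 21.4, 25.9, 17.5, 15.6 and 17.2 on the Nipponbare arrays. Os.10659.1.S1_at gave 139, 102, 82.8, 113 and 99.01 on the 93-11 arrays, against 4.68, 5.42, 3.93, 15.9 and 13.1 on the Nipponbare arrays (no overlap, log2 difference 2.33, standard error 0.23, limma adjusted p = 1.27e-06). LOC4348123 on chromosome 10 had Os.8385.2.S1_at among the 84, with 1323, 1061, 1148, 1021 and 1243 on the 93-11 arrays, against 29.2, 20.5, 34.6, 21.7 and 40.3 on the Nipponbare arrays. Os.8385.2.S1_x_at gave 194, 181, 111, 122 and 129.8 on the 93-11 arrays, against 14.7, 20.1, 27.1, 11.2 and 18.9 on the Nipponbare arrays (log2 difference 2.24, standard error 0.22, limma adjusted p = 1.83e-06). LOC4352868 on chromosome 12 had Os.46902.1.S1_at among the 84, with 724, 469, 1378, 908 and 669 on the 93-11 arrays, against 42.98, 39.2, 39.8, 36.1 and 22.1 on the Nipponbare arrays. Its 93-11 values ranged widely, with array 3 highest. Of its 4 other probe sets, Os.46902.1.S1_x_at was at 2792 ± 532 in 93-11 and 629 ± 90.01 in Nipponbare (log2 difference 2.11, limma adjusted p = 7.82e-08) and Os.47039.1.S1_x_at at 4139 ± 723 in 93-11 and 2610.4 ± 401 in Nipponbare (0.66, adjusted p = 0.0113). Os.28425.1.S1_x_at was at 11286 ± 939.8 in 93-11 and 11448 ± 2076 in Nipponbare, a log2 difference of -0.01 (limma adjusted p = 0.987) that became 0.35 after scaling (adjusted p = 0.00245). Os.28425.1.S2_at was weak, at 10.2 ± 8.41 in 93-11 and 56.6 ± 8.14 in Nipponbare (log2 difference -1.53, limma adjusted p = 2.82e-04).

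**Figure D5:**
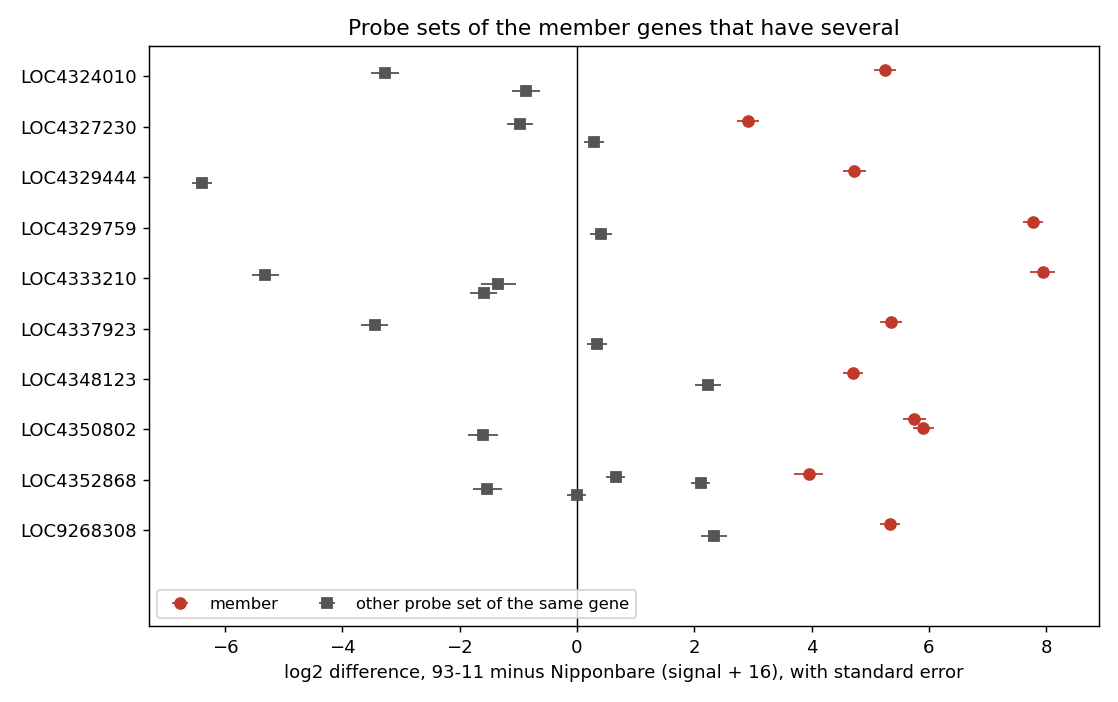
Log2 difference of signal + 16, 93-11 minus Nipponbare, with standard errors from limma, for the 10 genes that have a probe set among the 84 (red circles, shown as a description since this contrast chose them) and other probe sets (grey squares). Of the 18 grey squares, 10 were called lower and 4 higher.

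A further 11 probe sets that the annotation does not pair with these genes share an ID number with one of the 84, over 8 numbers. Limma called 2 of them higher and none lower (1.66% and 11.9% of all probe sets), and after scaling 6 higher and none lower (7.84% and 9.21% of all). Os.34199.1.S1_at of LOC4325412 gave 305, 249, 342, 228 and 341 on the 93-11 arrays, against 90.3, 94.5, 33.8, 33.6 and 34.4 on the Nipponbare arrays (log2 difference 2.16, standard error 0.26, limma adjusted p = 1.76e-05). Its partner among the 84, Os.34199.2.S1_s_at, had 361, 342, 344, 332 and 404 on the 93-11 arrays, against 83.3, 136, 53.8, 90.4 and 73.5 on the Nipponbare arrays. The other called higher was OsAffx.23623.1.S1_at, at 36.8 ± 7.65 in 93-11 and 10.3 ± 4.02 in Nipponbare (SD, n = 5 each, limma adjusted p = 0.00194). Of the 11, 3 were strong in both cultivars, where 11006 of all 57258 probe sets were. Os.13565.1.A1_s_at gave 4268, 3369, 3976, 3405 and 4098 on the 93-11 arrays, against 4051, 4870.4, 3381, 2925 and 3204 on the Nipponbare arrays, a log2 difference of 0.07 (standard error 0.16, limma adjusted p = 0.848), where Os.13565.1.A1_at, given above, reached at most 20.1 in Nipponbare. Os.8385.1.S1_s_at was at 4833 ± 726 in 93-11 and 3656 ± 757 in Nipponbare (limma adjusted p = 0.146) and Os.47732.1.S1_s_at at 804 ± 307 in 93-11 and 546 ± 91.98 in Nipponbare (adjusted p = 0.149). After scaling these 3 were called higher in 93-11, with log2 differences of 0.42, 0.77 and 0.85 in this order (limma adjusted p = 0.00586, 5.38e-04 and 0.00745). In these 3 numbers, a probe set strong in both cultivars thus stood beside one with little signal in Nipponbare.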

How the data were processed

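Total RNA of young panicles was labeled and hybridized by the authors to GeneChip rice arrays, 5 of 93-11 and 5 of Nipponbare, labeled as biological replicates. The deposited table holds 1 intensity per probe set and array on a linear scale. The submitters' processing notes name GCOS 1.3 as the software. Neither the summary of probe signals nor any scaling of the arrays is described (not given in the sources used here). Arrays have no read depth, and the 5 arrays per cultivar limit the precision.

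The 123 control probe sets were left out, which left 57258. Tests were made with limma 3.58.1 in R 4.3.3 on log2(signal + 16), with an intensity trend, over all 57258 probe sets. The threshold was an adjusted p of 0.05 (Benjamini-Hochberg). A second fit used arrays scaled to 1 mean, trimmed by 2% at each end. The fitting code was checked on simulated data. Exact permutation tests were two-sided, and the smallest p that 5 against 5 arrays allow is 0.00794. The replicate numbers were not used as pairs. Alternatives were another pseudocount, a filter on low signals, quantile scaling, other thresholds and leaving out arrays.

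Genes were taken from the platform annotation, updated through RefSeq. The genes named are the 5 strongest probe sets in 93-11, the 10 with the largest difference of mean log10 signal, the probe sets paired with a gene, other probe sets of the same gene or ID number, and those nearest to the thresholds. The probe sets, gene lists and rules were chosen with earlier results of these data known.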

Additional observations from a re-analysis of the deposited data

Results flagged for a closer look

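The 84 probe sets, the others of the same genes or ID numbers, those nearest to the thresholds and 4 array measures were tested in each cultivar for 1 array far from the other 4. Of these 246 sets of 5 arrays 18 had one, and chance alone gives about 1 in 20. Among the 84 it was array 5 in all 4 cases of 93-11, with 315 for Os.14923.2.S1_at, 1259 for Os.18866.3.A1_at, 1692 for Os.44418.1.S1_at and 267 for OsAffx.18811.1.S1_at. In Nipponbare there were 9 cases among the 84. On array 4 these were OsAffx.19388.1.S1_s_at with 31.6, Os.4808.1.S1_at with 10.1 and OsAffx.9194.3.A1_at with 63.98. On array 3 they were Os.20714.1.S1_at with 11.9 and OsAffx.16098.1.S1_at with 71.9, and on array 2 Os.22560.1.A1_at with 15.6 and Os.38444.2.S1_x_at with 49.4. The last ones were Os.18866.2.S1_at with 11.2 on array 1 and OsAffx.18811.1.S1_at with 3.80 on array 5. None of these arrays brought the cultivars to overlap. Outside the 84, Os.5838.1.S1_at had 58.3 on 93-11 array 3, Os.47732.1.S1_s_at had 1347 on 93-11 array 5, OsAffx.9194.2.S1_at had 54.5 on Nipponbare array 2 and Os.17055.2.A1_a_at had 4.43 on Nipponbare array 5. The actin 3'/5' ratio of Nipponbare array 5 was 4.54, apart from the other Nipponbare arrays.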

How the results depend on the processing

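The deposited values give no background measure or detection call, so signals near the bottom of an array have no stated floor, and this limits the size of the largest differences. The rule was met by 105 probe sets after scaling to a common trimmed mean and by 114 after quantile scaling, all 84 included both times, and by 126 with thresholds of 2.4 and 2.1 and 66 with 2.6 and 1.9. The calls over all probe sets moved with scaling, from a split of 951 higher and 6788 lower as deposited to 4490 higher and 5274 lower with the common trimmed mean, and 5772 higher and 4826 lower with quantile scaling, where the higher calls outnumbered the lower ones. With a filter on a mean log10 signal of 2.0 over all arrays, 486 were called higher and 3928 lower of 18197 tested. Of the 84, 43 passed this filter, and these 43 were called. Each of the 84 is below 2.0 in Nipponbare by the rule, so these passed only through their signal in the other cultivar. The rule used the contrast between cultivars, so nothing is read from the calls of the 84, here or in the settings below. Of the 18 other probe sets of the same genes, 8 were called higher with the common trimmed mean and 8 with quantile scaling, and with the filter 2 were called higher and 5 lower of 11 tested. The log2 difference of Os.28425.1.S1_x_at, -0.01 as deposited and not called, was 0.35 with the common trimmed mean and 0.21 with quantile scaling. Leaving out 1 array at a time gave 82 to 88 probe sets that met the rule, 782 to 1238 called higher and 5325 to 9678 called lower over all, 84 of the 84 called, and 4 to 5 of the 18 higher and 9 to 10 lower. Arrays of the same number deviated together with r of 0.01, -0.07 and 0.03 for numbers 1 to 3, and of 0.16 and 0.22 for numbers 4 and 5, which also correlated best with their own number. With a replicate block 886 probe sets were called higher and 6543 lower, 84 of the 84 higher, and 4 of the 18 higher and 10 lower.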
